A study of Mus musculus with 30 samples.

Results

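Nfya, Nfyb and Nfyc encode the subunits NF-YA, NF-YB and NF-YC of the transcription factor NF-Y. They are 3 of the 29555 gene identifiers in the deposited mouse RNA-seq tables. Every ATAC-seq peak inside these genes or within 10 kb of either end was taken with them, which gave 18 of 158917 peaks in the table of epiblast stem cells and endoderm and 16 of 181059 peaks in the table of epiblast stem cells alone. The genes were chosen by their transcript levels in these libraries, with the change from EpiSC to DE known, so their transcript values are described here without a test. The peaks were taken by position, whatever their value, and those that passed a filter on low counts were tested.

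The series compared mouse epiblast stem cells (EpiSCs), cultured pluripotent cells that resemble the epiblast shortly before gastrulation, with definitive endoderm (DE) made from them, and EpiSCs of several genetic backgrounds with each other. The RNA-seq libraries used were 5 of C57BL/6 (B6) EpiSCs, 4 of B6 DE, 3 of PWK/PhJ (PWK) EpiSCs, 3 of B6.129 F1 EpiSCs and 1 of DBA/2J (DBA) EpiSCs, and the ATAC-seq libraries were 4, 4, 2, 0 and 1 in the same order. All cells were between passages 5 and 10, and the labels list no treatment. EpiSCs of every strain grew on feeder cells with Fgf2, ActivinA and the Wnt inhibitor NVP-TNKS656, and were lifted with collagenase. DE cells were induced with CHIR99201 and ActivinA for 16 h, kept in ActivinA with LDN193189 for a further 24 h, and sorted for CXCR4 with magnetic beads. The labels also state 46 h for the differentiation as a whole. They call the replicates biological but do not say whether these are separate lines or cultures of 1 line, so the spread between libraries may be partly technical.

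NF-Y is a heterotrimer that binds the CCAAT box, a short element common in promoters. NF-YB and NF-YC carry histone folds and pair with each other first. NF-YA then joins the pair and makes the sequence-specific contacts with CCAAT, so the complex does not bind its site without it. In pluripotent cells NF-Y is known for holding promoters open and for work on genes of the cell cycle, sterol synthesis and the endoplasmic reticulum. NF-YA is often described as the regulated, limiting subunit, and its transcripts are spliced into a long and a short form, which counts per gene cannot separate.

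The promoters of the 3 genes differ in the element that NF-Y itself binds, and they are shown for that reason. Sequences are from RefSeq tables of assembly GRCm38.p6, read 5′ to 3′ on the minus strand, on which all 3 genes lie. Nfya occupies chr17:48386885-48409820, and the 136 bases between it and the divergent gene Oard1 are chr17:48409821-48409956. The span of Nfyb, chr10:82748700-82764151, lies within the span of Hcfc2, and the 240 bases before it are chr10:82764152-82764391. Nfyc occupies chr4:120757435-120831579, holds the microRNA genes Mir30c-1, Mir30e and Mir30f, and has 3 listed starts, at positions 120825741, 120825209 and 120815713. Capitals mark CCAAT or its reverse ATTGG, and the GC box GGGCGG or its reverse CCGCCC, the element bound by Sp1.
Nfya to Oard1: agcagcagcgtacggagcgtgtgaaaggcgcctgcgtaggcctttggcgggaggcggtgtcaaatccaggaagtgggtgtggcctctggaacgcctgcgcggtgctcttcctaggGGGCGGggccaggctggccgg
Nfyb upstream: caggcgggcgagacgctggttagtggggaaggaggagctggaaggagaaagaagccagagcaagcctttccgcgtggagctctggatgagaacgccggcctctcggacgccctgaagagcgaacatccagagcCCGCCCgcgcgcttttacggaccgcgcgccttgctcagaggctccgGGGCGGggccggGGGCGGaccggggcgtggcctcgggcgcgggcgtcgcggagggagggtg
Nfyc site 245 bases before the start at 120825209: ccgCCAATggcggagagc
Nfyc site 97 bases before that start: gctttctcccATTGGcggaaggcga
Nfyc site 61 bases before that start: ctcgctcgtgATTGGtcggcggcgg
Nfyc site 23 bases before that start: ctggcaccttATTGGtcacgccggc
Nfyc site 134 bases before the start at 120815713: acgtgaacagCCAATcatggctttg
Nfyc site 93 bases before that start: agcagctcagCCAATgggactgctt
Nfya site 135 bases before the internal start at 48400580: tgagcatctcCCAATggtgctcatt

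In windows of 250 bases before to 50 bases after a listed start, CCAAT occurred on either strand in 37.4% of the 32851 windows of all genes. The windows of the 2 outer Nfya starts and of Nfyb held none, and the internal Nfya start held 1. Of the Nfyc windows, the outermost held 0, the middle one 5 and the innermost 3. The copies 16 bases after the middle start and 2 bases after the innermost start lie in the transcribed part and are not printed. At least 3 copies were present in 3.37% of all windows and at least 5 in 0.271%. The GC box, which 35.7% of all windows hold, occurred 3 times at Nfyb and 1 time at the outermost Nfyc start. The overlapping windows of the 2 outer Nfya starts share 1 GC box, the one printed above. The other windows of Nfya and Nfyc held 0. These counts describe letters in the windows and show no binding.

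In the counts of DE against EpiSCs the 3 subunit genes went separate ways. The transcript of the DNA-contacting subunit fell to a small remainder, that of NF-YB stayed at its level, and that of NF-YC was higher. Whether DE and EpiSC columns were counted alike is not given, as set out below. Levels are CPM, counts divided by a library size scaled over all 16 RNA libraries and put on a common total. Nfya (ENSMUSG00000023994) stood at 85.4, 73.2, 69.5, 68.7 and 76.6 CPM in B6 EpiSC replicates 1, 2, 4, 44 and 51. In B6 DE replicates 2, 4, 44 and 51 it stood at 2.68, 2.74, 2.20 and 3.64 CPM, from 55 to 237 counts. The lowest EpiSC library was far above the highest DE library. The means were 74.7 ± 6.79 CPM (SD, n = 5) and 2.82 ± 0.602 CPM (SD, n = 4), and the fitted log2 change was -4.69 (SE 0.19), a 25.8-fold lower level. Of the 14085 genes tested, 414 (2.94%) had a lower fitted change.

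Nfyb (ENSMUSG00000020248) stood at 113, 110, 99.8, 111 and 103 CPM in the B6 EpiSC replicates in the same order. In the DE replicates it stood at 95.4, 103, 99.5 and 121 CPM. The groups overlapped and the log2 change was 0.00 (SE 0.11). The means were 107 ± 5.64 CPM (SD, n = 5) and 105 ± 11.4 CPM (SD, n = 4).

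Nfyc (ENSMUSG00000032897) stood at 68.7, 92.5, 63.4, 68.9 and 89.2 CPM in the EpiSC replicates. In DE it stood at 123, 123, 131 and 141 CPM, above every EpiSC library. The means were 76.5 ± 13.3 CPM (SD, n = 5) and 129 ± 8.50 CPM (SD, n = 4), and the log2 change was 0.79 (SE 0.14), 1.73-fold higher. Nfya and Nfyc were therefore 2 of 3 members with no overlap between the groups. This contrast chose the genes, and 55.2% of all genes tested also had groups that did not overlap, while 31.5% were called higher and 30.6% lower. Calls here and below are those of the quasi-likelihood test of edgeR at a Benjamini-Hochberg adjusted p under 0.05.

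**Figure D1:**
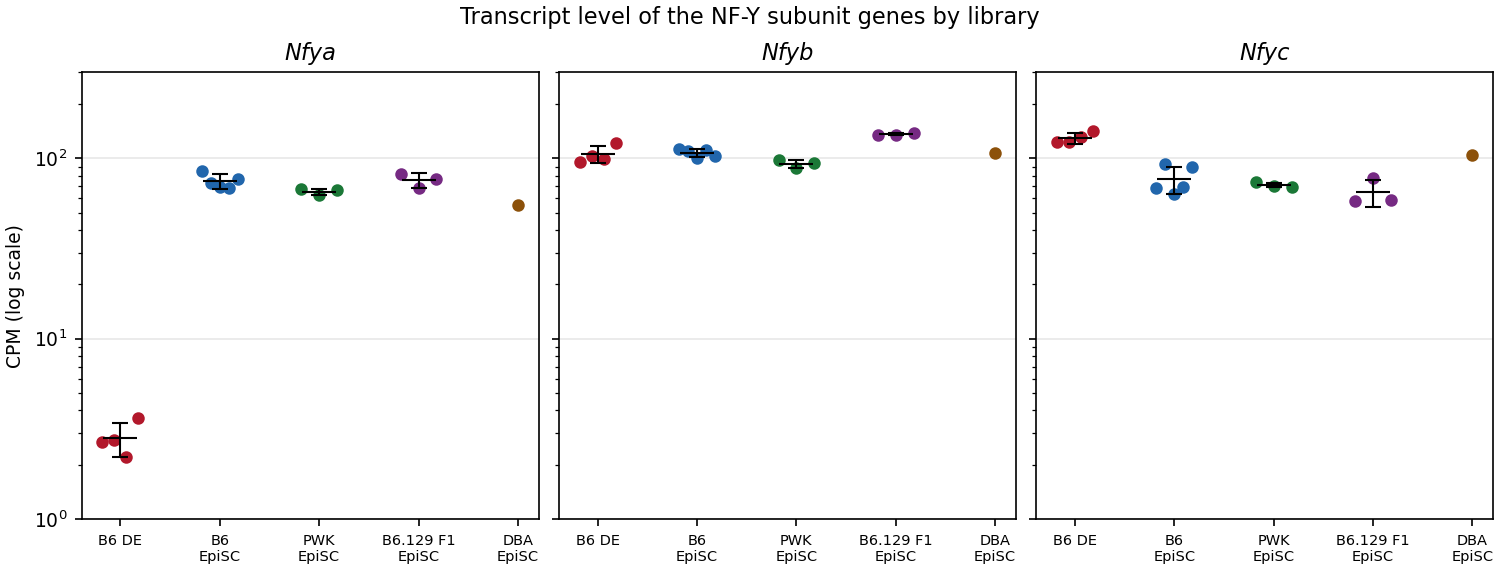
CPM of the 3 NF-Y subunit genes in each RNA library (points, log axis) by group, with mean and SD (black) where a group has more than 1 library. The 4 DE libraries lie between 2.20 and 3.64 CPM for Nfya, below every EpiSC library, and between 123 and 141 CPM for Nfyc.

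The balance of the subunits within a library does not depend on scaling. The log2 ratio of Nfya to Nfyb was -0.53 ± 0.12 (SD, n = 5) in B6 EpiSCs and -5.23 ± 0.19 (SD, n = 4) in DE. That of Nfya to Nfyc went from -0.02 ± 0.26 to -5.54 ± 0.26. The ratio of Nfyb to Nfyc, the histone-fold partners, went from 0.50 ± 0.25 in EpiSCs, with libraries from 0.21 to 0.71, to -0.31 ± 0.08 in DE, with libraries from -0.39 to -0.22. Counts are not per length, so these ratios show shifts between groups and not the amounts of the subunits relative to each other. A difference in how DE and EpiSC columns were counted would not cancel in such a ratio, and its part was not tested.

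The DE libraries carried markers of the identity in their label. Summed levels of 8 endoderm markers ran from 6821 to 13684 CPM there and from 164 to 540 CPM in B6 EpiSCs, and 8 of 8 rose. Cxcr4 is 1 of the 8, and since the DE cells were sorted for CXCR4, its rise is no evidence of identity. Cer1 had the highest level of the 8 in DE, 6460 ± 2555 CPM (SD, n = 4). Of 6 primed pluripotency genes 3 fell and 2 rose, and their sums overlapped, at 2520 to 4008 CPM in B6 EpiSCs and 3018 to 3988 CPM in DE. Pou5f1, the central pluripotency factor, was at 1150 ± 184 CPM (SD, n = 5) in EpiSCs and at most 36.3 CPM in DE, and Sox2 and Nanog also fell. Fgf5, a growth factor gene of the epiblast, rose from 216 ± 47.1 to 1587 ± 115 CPM and Otx2, a homeobox gene, from 143 ± 30.6 to 498 ± 41.4 CPM, while Dnmt3b, a DNA methyltransferase gene, was not called. Of 9 feeder fibroblast markers 8 were called lower in DE, with sums of 55.5 to 2524 CPM in B6 EpiSCs and 63.7 to 226 CPM in DE, and none of the 9 was at 0 throughout either group. The B6 EpiSC library with the lowest feeder sum, replicate 1 at 55.5 CPM, lay below every DE library in that sum and had 85.4 CPM of Nfya. The B6 EpiSC library with the highest feeder sum, replicate 51 at 2524 CPM, had 76.6 CPM of Nfya. The part of feeder cells in the Nfya difference was not tested. In bulk RNA, fewer cells with a transcript and less of it per cell cannot be told apart.

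DE and EpiSC columns also differed widely at a ribosomal protein gene and at a ribosomal pseudogene. The ribosomal protein gene Rps12 stood at 139 ± 28.6 CPM (SD, n = 5) in B6 EpiSCs and 1.56 ± 0.724 CPM (SD, n = 4) in DE. The ribosomal pseudogene Rpl10-ps1 stood at 0.585 ± 0.854 CPM and 503 ± 249 CPM. Both genes were picked after their values were seen. Whether both kinds of column were counted in the same way is not given in the sources used here, and the part of counting in the Nfya difference was not tested.

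Genes beside the members did not share their changes in any uniform way. Oard1, an ADP-ribose hydrolase gene whose span begins 136 bases from that of Nfya and runs the opposite way, stood at 51.8 ± 5.36 CPM in EpiSCs and 68.2 ± 30.5 CPM in DE, where replicate 2 was at 113 CPM and the others between 46.5 and 61.5 CPM. Its fitted log2 change, 0.44 with an SE of 0.26, was not called (edgeR adjusted p = 0.159). Apobec2, a deaminase family gene 9410 bp upstream of Nfya, went from 2.90 ± 3.11 to 103 ± 26.7 CPM (log2 change 5.17, SE 0.92, edgeR adjusted p = 0.000699). Hcfc2, which spans Nfyb, was not called (log2 change 0.54, SE 0.28, edgeR adjusted p = 0.115). It overlaps Nfyb, and whether reads were assigned by strand is not stated.

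Across EpiSCs of the 4 backgrounds the subunit genes moved little. PWK libraries had Nfya at 67.3, 62.6 and 66.4 CPM (BioRep695, BioRep698 and the unnumbered library), just under the lowest B6 library, with a log2 difference of -0.19 (SE 0.09). The B6.129 F1 libraries, at 82.3, 68.0 and 76.5 CPM, overlapped the B6 range, with a log2 difference of 0.00 (SE 0.09). The single DBA library was at 55.3 CPM, the lowest of the 12 EpiSC libraries. In order, Nfya was highest in F1 and B6, which overlapped, lower in PWK and DBA, and lowest in DE.

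Nfyb differed from B6 without overlap in both PWK and F1. It stood at 134, 135 and 138 CPM in the F1 libraries (136 ± 2.10, SD, n = 3), above every B6 library, with a log2 difference of 0.32 (SE 0.06). In PWK it stood at 97.8, 88.2 and 94.6 CPM (93.5 ± 4.89, SD, n = 3), below every B6 EpiSC library, with a log2 difference of -0.20 (SE 0.06), and the DBA library was at 107 CPM. F1 thus ranked first, B6, DBA and DE could not be separated by their spread, and PWK overlapped the lower DE libraries.

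Nfyc did not differ between B6, PWK and F1 beyond its spread. PWK libraries were at 73.7, 70.0 and 69.7 CPM and F1 libraries at 58.1, 77.6 and 58.8 CPM, with log2 differences from B6 of -0.10 (SE 0.14) and -0.26 (SE 0.14). The DBA library, at 104 CPM, was above every other EpiSC library and below every DE library. In the PWK comparison Nfya and Nfyb had no overlap with B6, which 32.0% of the 14822 genes tested also showed, and 26.5% were called. For F1 the shares were 14.9% and 2.84%, and Nfyb was the member without overlap. Summed feeder markers ran from 1941 to 2765 CPM in PWK and from 123 to 190 CPM in F1, and their part in these small differences was not tested.

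The genes whose log2 CPM followed each member most closely over the 16 libraries were found among 9117 genes, as a description. For Nfya they were Pum2, an RNA-binding repressor of translation (Pearson r 0.996, 295 to 31.9 CPM from B6 EpiSC to DE), Zfp462, a zinc finger gene (r 0.996, 240 to 4.99 CPM), and Hnrnpul2, an RNA-binding protein gene (r 0.995, 301 to 25.2 CPM). As many as 760 genes had an r above 0.95 with Nfya, since the 4 DE libraries set this pattern, and over the 12 EpiSC libraries alone the highest was Eif3e, a translation initiation factor subunit, at 0.927. For Nfyc the closest were Keap1, the adaptor that targets Nrf2 for degradation (r 0.967, 34.7 to 77.2 CPM), Ccnjl (r 0.963) and Ranbp3 (r 0.955). For Nfyb they were Mpp7 (r 0.900), Ppm1a (r 0.889) and Ptpn2 (r 0.884). Among the members, r was -0.86 between Nfya and Nfyc, 0.22 between Nfya and Nfyb and -0.24 between Nfyb and Nfyc.

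Chromatin at the Nfya start stayed open while the transcript was 25.8-fold lower. The peak there, chr17:48409473-48410236, covers both outer Nfya starts and the start of Oard1. It was at 99.8, 97.4, 81.9 and 98.2 CPM in B6 EpiSC replicates 1, 4, 44 and 51, and at 113, 111, 111 and 116 CPM in DE replicates 2, 4, 44 and 51. The means were 94.3 ± 8.35 CPM (SD, n = 4) and 113 ± 2.15 CPM (SD, n = 4), and every DE library was above every EpiSC library. The call (log2 change 0.25, SE 0.10, edgeR adjusted p = 0.0404 over all peaks) was lost without any single library, with values from 0.06 to 0.22, and was 0.04 (edgeR adjusted p = 0.759) when total library size set the scale. The accessibility of this shared promoter cannot be divided between Nfya and Oard1.

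Sites upstream of Nfya opened. A peak 5652 bp before the Nfya start, within Oard1 (chr17:48415328-48415615), held 4, 15, 0 and 5 counts in the EpiSC replicates and 73, 102, 110 and 54 counts in DE. It went from 0.729 ± 0.616 to 15.8 ± 0.736 CPM (log2 change 4.17, SE 0.39). A second, 8455 bp before the start and outside any gene of the table, went from 0.339 ± 0.580 to 7.54 ± 3.16 CPM (log2 change 4.00, SE 0.62). It stayed within 1.20 CPM in every EpiSC library and was 5.10 CPM or more in every DE library. Both of these peaks passed the filter on low counts through DE, so only a call higher was open to them. Another, 9988 bp before the start and within Apobec2, went from 2.77 ± 0.509 to 7.73 ± 2.69 CPM (log2 change 1.48, SE 0.34, edgeR adjusted p = 0.000762). Between them, a peak 7116 bp before the start was lower in DE, from 32.6 ± 4.61 to 23.3 ± 2.50 CPM (log2 change -0.48, SE 0.16, edgeR adjusted p = 0.0135). These sites lie in or near Oard1 and Apobec2 as well as Nfya, and the gene they act on is not known from these data.

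At Nfyb, the start peak (chr10:82763854-82764196) was at 30.7 ± 1.59 CPM in EpiSCs and 36.5 ± 1.76 CPM in DE, with no overlap but no call (log2 change 0.25, SE 0.14, edgeR adjusted p = 0.126). A peak inside the gene, 7004 bp past the start, held at most 4 counts in an EpiSC library and 11 to 41 counts in a DE library. It went from 0.160 ± 0.320 to 4.26 ± 1.49 CPM (log2 change 4.63, SE 0.75). Another, 21255 bp past the start and inside Hcfc2, went from 0.258 ± 0.176 to 2.82 ± 0.722 CPM (log2 change 3.19, SE 0.59). Both weak peaks passed the filter on low counts through DE, so only a call higher was open to them. They were higher while the Nfyb transcript stayed at its level.

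Nfyc has a peak at each of its 3 listed starts, and they did not move alike. At the middle start, whose window holds 5 CCAAT copies, the peak was at 16.8, 22.2, 15.3 and 18.3 CPM in the EpiSC replicates and at 35.0, 26.3, 32.2 and 25.1 CPM in DE replicates 2, 4, 44 and 51. The log2 change was 0.70 (SE 0.18, edgeR adjusted p = 0.00194), with no overlap, and the call was lost when EpiSC replicate 1 and DE replicate 2 were both left out (0.52, edgeR adjusted p = 0.0598). At the outermost start, with no CCAAT, the peak went from 16.7 ± 5.25 to 18.1 ± 1.04 CPM (log2 change 0.11, SE 0.21, edgeR adjusted p = 0.680). At the innermost start, with 3 copies, it went from 28.1 ± 8.34 to 19.9 ± 4.52 CPM (log2 change -0.50, SE 0.21, edgeR adjusted p = 0.0479), and this call was lost without DE replicate 4 (-0.47, edgeR adjusted p = 0.0663) or DE replicate 51 (-0.47, edgeR adjusted p = 0.0694). The differences between the 3 changes were not tested.

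Further inside Nfyc, peaks 63748 and 44594 bp past the outermost start were called higher in DE, with log2 changes of 2.04 (SE 0.55) and 1.68 (SE 0.42). They passed the filter on low counts through DE, so only a call higher was open to them. Another, 19751 bp past the outermost start, was also called higher (log2 change 1.34, SE 0.48, edgeR adjusted p = 0.0219). It lost its call without EpiSC replicate 1, 44 or 51 or DE replicate 2 or 44, with values from 0.98 to 1.27. Over the 3 genes, 16 of the 18 peaks passed the filter on low counts, of which 10 were called higher and 2 lower. A peak weak in 1 group can pass through the other group alone. Among those that did, through DE, were the peaks 5652 and 8455 bp before the Nfya start and 7004 and 21255 bp past the Nfyb start. The Nfyc peaks 63748 and 44594 bp past the outermost start did so as well. For all of these only a call higher was open, and the counts and the median given here include them. With each library left out, 8 to 9 peaks were called higher, and with at least 10 counts in every library 3. In the whole table, 57.6% of 113870 peaks were called, 32.6% higher and 25.0% lower, and the median log2 change was 1.02 in the windows against -0.01 overall. With total library size as the scale, the median over all peaks was -0.22 and the split was 33320 higher and 36674 lower, in place of 37108 and 28496. At the edge of the windows, the outermost Nfya peak inside, 9901 bp from the gene, had a log2 change of 1.48, and the next one outside, 14157 bp away, 2.01. For Nfyb the values were 3.19 inside and -0.54 outside, and for Nfyc -0.16 inside and -0.99 outside.

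**Figure D2:**
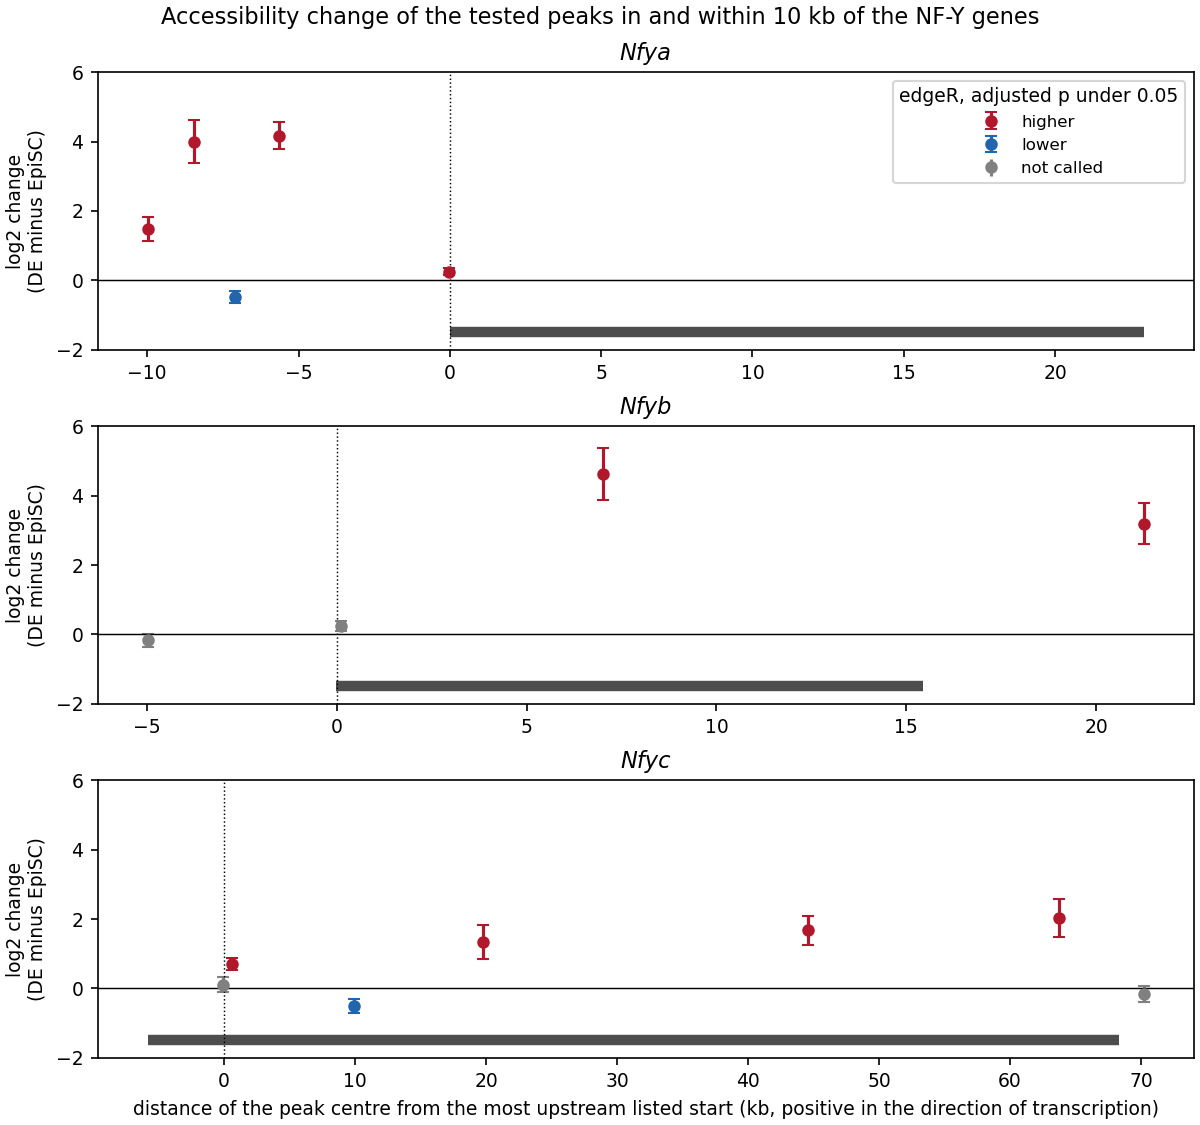
Log2 change in accessibility from B6 EpiSC to B6 DE (points, with SE) of the 16 tested peaks, by distance from the most upstream listed start of each gene in kb. Grey bars show the gene spans and colours the edgeR call. The call at the Nfya start, 0.25, was lost without any 1 library. The peaks 5652 and 8455 bp before that start had changes of 4.17 and 4.00. These distal peaks passed the filter on low counts through DE, so only a call higher was open to them.

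Between strains 1 site stood out, upstream of Nfyb. The peak chr10:82768888-82769291, 4948 bp before the Nfyb start and within Hcfc2, was at 26.4, 29.5, 26.6 and 36.1 CPM in B6 EpiSC replicates 1, 4, 44 and 51, from 106 to 283 counts. The PWK libraries held 20 and 14 counts there, 3.54 and 1.52 CPM. The log2 difference was -3.61 (SE 0.32, edgeR adjusted p = 1.75e-05), 12.2-fold lower in PWK, and ran from -4.27 to -3.06 with each library left out. The DBA library was at 46.3 CPM, above every B6 library. In the DE comparison the same site went from 29.8 ± 4.52 to 26.3 ± 7.45 CPM (log2 change -0.17, SE 0.19, edgeR adjusted p = 0.478). The Nfyb transcript in these strains was at 107 CPM in B6, 93.5 CPM in PWK and 107 CPM in DBA.

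Of the 14 tested peaks in this table, that 1 was lower in PWK and 1 was higher, against 3.68% lower and 1.42% higher among 137667 peaks, 5.11% called in all. The higher one, 419 bp before the innermost Nfyc start, was at 1.86 ± 0.266 CPM in B6 and 4.96 and 6.62 CPM in PWK (log2 difference 1.67, SE 0.45, edgeR adjusted p = 0.0453), and its call was lost without any single library. The start peaks had log2 differences of -0.03 (SE 0.14) at Nfya, -0.17 (SE 0.17) at Nfyb and 0.06 (SE 0.27), 0.10 (SE 0.25) and 0.45 (SE 0.22) at the Nfyc starts from the outermost inward, none called by edgeR. The submitters' processing notes name 1 genome build for all strains, mm10, and the part of PWK sequence differences in read counts at the Nfyb site was not tested.

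**Figure D3:**
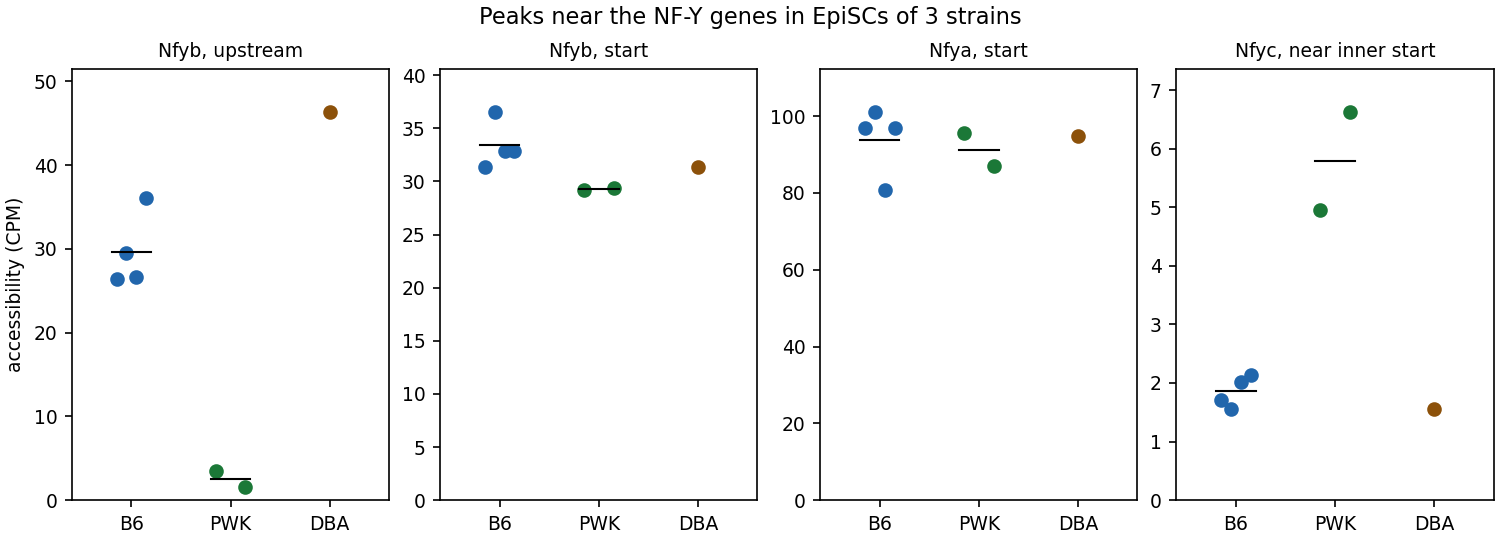
Accessibility in CPM of 4 peaks near NF-Y genes in EpiSC libraries of B6, PWK and DBA (points), with the group mean as a line where there is more than 1 library. At the peak upstream of Nfyb the PWK libraries lie at 1.52 and 3.54 CPM, below the B6 libraries at 26.4 to 36.1 CPM, while at the Nfya start both strains overlap.

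Genes for factors that share the structure or the promoters of NF-Y went in both directions in DE, where 31.5% of all genes were called higher and 30.6% lower, with a median of -0.01. Against that background, the shares called among the CCAAT-named and promoter-neighbour factors below do not set these lists apart. All gene lists here and below were chosen with earlier results of these data known. Of 5 genes for histone-fold proteins related to NF-YB and NF-YC, 3 rose and 1 fell. Pole4 and Pole3, subunits of DNA polymerase epsilon, rose by log2 1.54 (SE 0.17, edgeR adjusted p = 3.15e-05) and 0.71 (SE 0.17, edgeR adjusted p = 0.00387). Chrac1, a chromatin remodelling subunit, rose by 1.35 (SE 0.26, edgeR adjusted p = 0.00103), and Dr1, the NC2 beta repressor subunit, fell by 0.47 (SE 0.14, edgeR adjusted p = 0.0158).

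Of 12 other factors named for CCAAT or its inverse, 10 were tested, 1 rose and 4 fell (median -0.62). Cebpg, a bZIP factor, fell by 0.98 (SE 0.13, edgeR adjusted p = 0.000113), Cebpz by 0.82 (SE 0.14, edgeR adjusted p = 0.000448) and Ybx1, a cold-shock domain protein gene, by 0.69 (SE 0.18, edgeR adjusted p = 0.00774), while Ybx3 rose by 0.50 (SE 0.17, edgeR adjusted p = 0.0269). The fourth that fell was Nfix (log2 change -2.58, SE 0.86, edgeR adjusted p = 0.0229), whose call was lost without EpiSC replicate 51 or DE replicate 4 or 44, with values from -2.55 to -1.98. The call of Ybx3 was lost without DE replicate 51 (0.41, edgeR adjusted p = 0.0808) and with total library size (0.40, edgeR adjusted p = 0.0541).

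Of 15 factors that bind next to NF-Y at promoters, 14 were tested, 4 rose and 5 fell (median -0.17). Sp1 binds the GC box, seen at the outer Nfya starts, the Nfyb start and the outermost Nfyc start. It had the largest fall of the list, from 296 to 38.1 CPM (log2 change -2.93, SE 0.19, edgeR adjusted p = 1.25e-06). Foxm1 and Usf2, a mitotic gene activator and an E-box factor, fell by 1.36 (SE 0.27) and 1.15 (SE 0.19), with edgeR adjusted p of 0.00136 and 0.000394. Rfxap, a subunit of the RFX complex of MHC class II promoters, rose by 1.72 (SE 0.15, edgeR adjusted p = 6.1e-06), Srebf1, a regulator of lipid genes, by 1.02 (SE 0.15, edgeR adjusted p = 0.000166), and E2f1, a cell-cycle factor, by 0.54 (SE 0.19, edgeR adjusted p = 0.0277). The call of E2f1 was lost without EpiSC replicate 1, 4 or 44 or DE replicate 4 or 44, with values from 0.44 to 0.53. The count of risers was 2 without EpiSC replicate 44 or DE replicate 4.

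Genes long known as CCAAT-box targets went in both directions in DE, and the part of Nfya in their changes was not tested. Of 8 targets in endoplasmic reticulum stress and heat shock, 6 rose and 0 were called lower (median 1.19); without DE replicate 2, 1 was called lower. Xbp1, a factor of the unfolded protein response, rose by log2 2.50 (SE 0.15, edgeR adjusted p = 1.12e-06), the chaperone gene Hspa5 by 2.02 (SE 0.12, edgeR adjusted p = 9.59e-07) and Herpud1 by 1.37 (SE 0.12, edgeR adjusted p = 6.16e-06). Of 8 targets in sterol and lipid synthesis, 5 rose and 1 fell (median 0.88), and 4 to 6 rose with each library left out. The weakest riser was Hmgcs1 (log2 change 0.43, SE 0.17, edgeR adjusted p = 0.0432). Its call was lost without EpiSC replicate 2, 4, 44 or 51 or DE replicate 4, 44 or 51, with values from 0.29 to 0.48. The cholesterol synthesis genes Cyp51, Fdft1 and Fdps rose by 1.70 (SE 0.16), 1.55 (SE 0.19) and 1.42 (SE 0.20), with edgeR adjusted p of 9.87e-06, 6.11e-05 and 0.000159, and the fatty acid synthase gene Fasn fell by 1.80 (SE 0.19, edgeR adjusted p = 2.4e-05).

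Of 12 cell-cycle targets, 3 rose and 2 fell (median 0.13). The thymidine kinase gene Tk1 rose by 1.12 (SE 0.17, edgeR adjusted p = 0.000232), the mitotic kinase gene Aurka by 0.86 (SE 0.15, edgeR adjusted p = 0.000609) and the ribonucleotide reductase gene Rrm2 by 0.71 (SE 0.19, edgeR adjusted p = 0.00724). Top2a, topoisomerase II alpha, fell by 1.58 (SE 0.16, edgeR adjusted p = 1.91e-05) and the phosphatase gene Cdc25b by 0.86 (SE 0.26, edgeR adjusted p = 0.0135). Of 4 MHC class II targets 2 were tested, and neither H2-Ab1 (log2 change 1.78, SE 0.97) nor Cd74 (-0.45, SE 0.88) was called by edgeR. Without a test of the lists against other genes, these counts stand beside 31.5% of all genes called higher and 30.6% called lower.

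**Figure D4:**
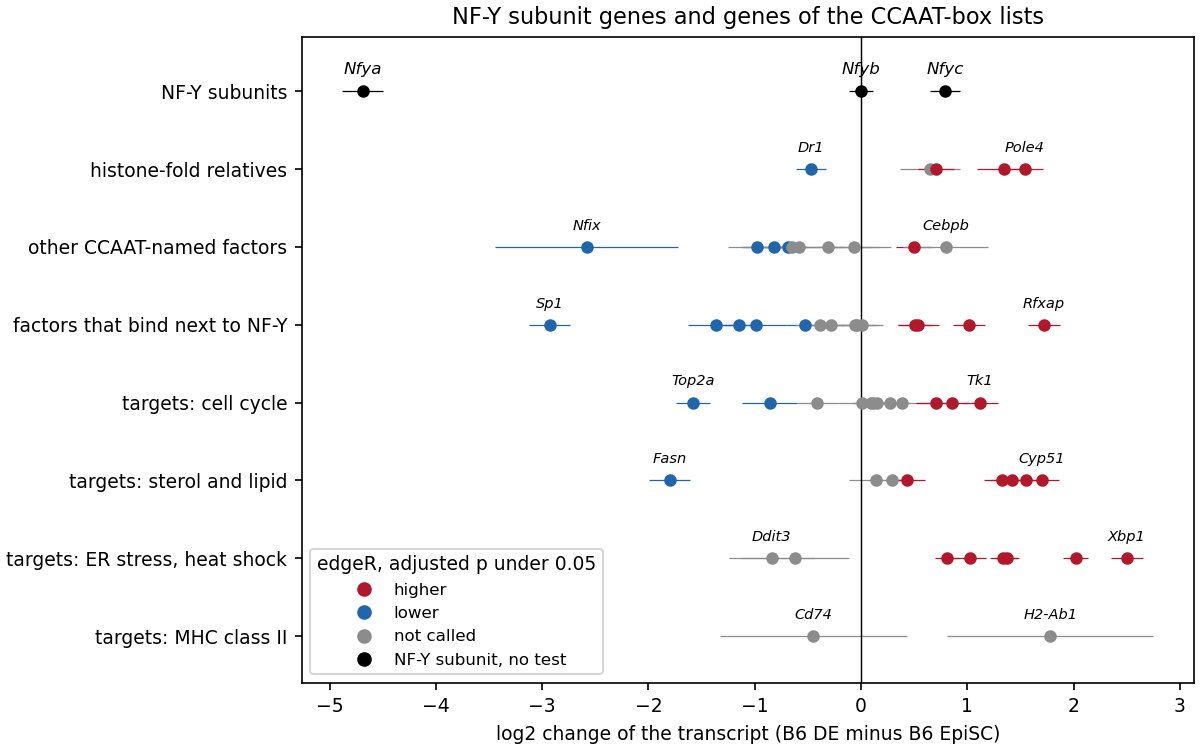
Log2 change (points, with SE) from B6 EpiSC to B6 DE of the NF-Y subunit genes (black) and of the tested genes of each list, coloured by the edgeR call, with the outermost gene of each list named. The lists of cell type markers are not shown. Among the genes shown, Nfya at -4.69 is the lowest and Xbp1 at 2.50 the highest.

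In PWK EpiSCs the cell-cycle targets were the list with the most calls: 9 of 12 fell and 1 rose (median -0.39), beside 14.5% of all genes called lower and 12.0% higher. This list too was chosen with earlier results of these data known. Without PWK BioRep695, 4 fell. Summed feeder markers ran from 1941 to 2765 CPM in these PWK libraries, from 55.5 to 2524 CPM in B6, where 4 of 5 libraries were at or below 1064 CPM, and from 123 to 190 CPM in F1, and their part in these changes was not tested. With total library size as the scale, the split of all genes was 2226 higher and 1708 lower, in place of 1781 and 2142. Rrm2 fell from 389 ± 15.4 to 226 ± 8.95 CPM (log2 difference -0.78, SE 0.06, edgeR adjusted p = 3.81e-06). Ccnb1, cyclin B1, fell from 390 ± 29.8 to 241 ± 11.4 CPM (log2 difference -0.69, SE 0.07, edgeR adjusted p = 5.02e-05). Cdkn1a, the p21 inhibitor of cyclin-dependent kinases, rose from 97.0 ± 30.3 to 185 ± 22.5 CPM (log2 difference 0.93, SE 0.20, edgeR adjusted p = 0.00571). In F1 EpiSCs Cdkn1a was the listed target called, with a log2 difference of -1.32 (SE 0.21, edgeR adjusted p = 0.0241), where 2.84% of all genes were called, and the call was lost without any 1 of the 3 F1 libraries (-1.34 to -1.29).

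Over all promoters, the share of genes that changed in DE differed little by CCAAT. Of 4523 tested genes with CCAAT in a window, 33.8% were higher and 29.1% lower (median 0.06), and of 5993 without it, 31.6% and 31.4% (median -0.03). The 593 genes with 3 or more copies, the class of the middle and inner Nfyc starts, had 38.6% higher and 25.0% lower, with a median of 0.22. In PWK the 607 genes of that class had 7.08% higher and 19.3% lower, against 11.2% and 14.2% without CCAAT. Of the peaks over promoters, 12.0% of 4673 with CCAAT were higher in DE and 14.1% lower, and of 7084 without it 14.6% and 12.8%. With the longer form CCAATCA, which 7.82% of windows hold, 8.22% of 1289 promoter peaks were higher and 16.3% lower. These classes are described without a test.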

How the data were processed

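RNA-seq and ATAC-seq libraries of mouse EpiSCs and DE were analysed from whole-number counts per Ensembl gene and per peak, deposited by the authors without normalization. Per the submitters' processing notes, the build was mm10, and fastp, Bowtie2, MACS2, Salmon, featureCounts and DESeq2 were used; their roles, and which tool made the gene counts, are not given in the sources used here. Per the labels' protocols, RNA was poly(A)-selected and the kit keeps strand. Each peak table has 1 set of peaks for all its libraries, per the file headers.

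Of 30 samples 27 were used, grouped by assay, strain and state from the labels. Not analysed here were the 3 DE samples of PWK, and a further 17 columns of 1 peak table, which match none of these samples, were not used. For PWK (both assays) and B6.129 F1, 1 column each carries no replicate number of the labels and was placed by strain. Within groups every pair of libraries differed by more than sampling noise (smallest chi-square per feature 9.71 for RNA and 2.77 for ATAC). Total counts ran from 22829536 to 66563933 for RNA, and from 3751526 to 9311622 and 4256551 to 9571127 in the 2 peak tables, and CPM of weak peaks rest on few reads.

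Tests used edgeR 4.0.16 in R 4.3.3 (filterByExpr, TMM, robust quasi-likelihood fits, Benjamini-Hochberg over all genes or peaks, called at an adjusted p under 0.05). PWK and F1 RNA were fitted in 1 model with B6. The fit was tested on simulated data. Correlations used log2 CPM with a prior count of 2, and matching to symbols found 29270 of 29555 identifiers. Promoter windows came from RefSeq, GRCm38.p6. Alternatives were RLE or total library size, DESeq2 1.42.0, no filter, a minimum of 10 counts per library, each library left out, a replicate block, fits of only the groups compared, a 2 kb window, and other CCAAT definitions.

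The members and gene lists were chosen with earlier results of these data known. Genes named from a list are up to 3 called genes with the largest rise and fall at a mean log2 CPM of at least 3; the closest genes are the 3 with the highest correlation; peaks named are those at a start and those called. Other genes named were chosen after their values were seen. Of the marker lists other than those in the report, 0 of 3 tested mesoderm genes were called higher and 3 lower in DE, 0 and 0 of 2 neuroectoderm genes, and 2 and 0 of 2 visceral endoderm genes, whose sums stayed at or below 15.1 CPM.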

Additional observations from a re-analysis of the deposited data

Results flagged for a closer look

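In 52 groups of 4 or 5 libraries, 6 had 1 library far from the others by Dixon's ratio at the 95% level, which chance gives in about 1 in 20 groups. All 6 were ATAC-seq peaks of the B6 EpiSC and DE table. At the Nfya start, EpiSC replicate 44 was low at 81.9 CPM, against 97.4 to 99.8 CPM in the others. At the Nfya peak 8455 bp upstream, EpiSC replicate 4 was high at 1.20 CPM. At the peak inside Nfyb, EpiSC replicate 1 was high at 0.640 CPM with the others at 0. At the Nfyb start, EpiSC replicate 1 was low at 28.3 CPM. At the peak upstream of Nfyb, EpiSC replicate 51 was high at 36.6 CPM. At the Nfyc peak 44594 bp past the outermost start, DE replicate 44 was high at 7.16 CPM.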

How the results depend on the processing

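The fitted changes of the members kept their size under all alternatives run: Nfya from -4.83 to -4.59, Nfyb from -0.09 to 0.03 and Nfyc from 0.70 to 0.85 in DE. In no result did a call turn its direction. For the results below the cause of the shift was not tested, except that a filter of at least 10 counts tests fewer peaks (44872 in the DE table) and left-out libraries mean fewer samples.

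With total library size, 0 other CCAAT-named factors and 2 promoter-neighbour factors were called higher in DE and 1 endoplasmic reticulum target lower. In the F1 comparison DESeq2 called 876 genes higher and 1124 lower, no filter gave 146 lower, and the fit of only the 2 groups gave 0 and 0 by edgeR, with 2779 genes at an unadjusted p under 0.05. At least 10 counts left 9868 higher and 8144 lower peaks in DE, with 3 higher near the NF-Y genes, and 667 and 1443 in PWK, with 0 higher there. Without a filter 0 peaks near the NF-Y genes were higher in PWK. Within 2 kb, 6 were higher and 1 lower in DE, and 0 lower in PWK.

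Left-out libraries gave 0 to 1 higher CCAAT-named factors, 2 to 4 higher promoter-neighbour factors, 0 to 1 lower endoplasmic reticulum targets, and 4 to 9 lower cell-cycle targets in PWK. Genes called ran from 1126 to 2428 higher and 1317 to 2476 lower in PWK, and from 0 to 1001 and 0 to 951 in F1. In F1 edgeR called 0 genes without the unnumbered library, with 2403 at an unadjusted p under 0.05, and 1001 and 951 without B6 replicate 1. Near the NF-Y genes 1 to 3 peaks were lower in DE and 0 to 1 higher in PWK, where all peaks ran from 1001 to 2027 higher and 2628 to 5418 lower. Leaving out a PWK ATAC library leaves 1, which is assumed to vary like the other libraries.

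With the replicate number as a block on shared numbers, 0 CCAAT-named and 2 promoter-neighbour factors were higher, and 6 peaks near the NF-Y genes were higher and 1 lower; the same libraries without the block also gave 1 lower. Under the block the Nfyc peak 63748 bp inside the gene (1.77, edgeR adjusted p = 0.057) and that of the middle start (0.53, edgeR adjusted p = 0.0795) lost their calls, the latter also in the same libraries without it (0.52, edgeR adjusted p = 0.0598). RNA libraries of the same number correlated at 0.237, 0.183, 0.0958 and 0.0881, each best with its own number, a hint from the data and not the design, and ATAC libraries at 0.0213, -0.00517 and 0.0485, so the numbers were not taken as pairs.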
